A study of Mus musculus with 28 samples.

Results

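Collagen genes were followed through the conversion of mouse embryonic fibroblasts into hepatocyte-like cells. The collagens were taken as every gene whose symbol is Col, a number, the letter a and a number, which gave 43 of the 23712 gene rows. They were grouped by the kind of assembly their protein forms into 11 fibrillar collagens, 8 basement membrane collagens and 24 other collagens. The choice used gene names and no measured value. RNA sequencing covered 28 libraries in 9 groups, all from C57BL/6 mice.

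Untreated fibroblasts (MEF, 2 libraries) came from embryos of day 13.5, and hepatocytes (Hep, 2 libraries) from the livers of mice 10 weeks old, freed by a perfusion with collagenase. The other cells were such fibroblasts given retroviruses with Hnf4alpha and 1 Foxa factor, liver transcription factors that together can turn fibroblasts into hepatocyte-like cells. Cells given Hnf4alpha with Foxa1, Foxa2 or Foxa3 were taken after 48 h (48h_Foxa1, 48h_Foxa2 and 48h_Foxa3, 2 libraries each). Established induced hepatocyte-like cells gave 6 libraries with Foxa1 (iHep_Foxa1), 4 with Foxa2 (iHep_Foxa2) and 6 with Foxa3 (iHep_Foxa3). A last pair of libraries (48h_Foxa3del2) came from cells given Hnf4alpha and a Foxa3 mutant called del2. Their titles give 48 h, while their stage label reads iHep and the series description has iMEFs, so their time point is not settled by the labels. No library of cells with an empty virus or with Hnf4alpha alone was among the 28, so infection and factors cannot be told apart. The labels do not say whether replicates were separate cultures, and p-values measure only the spread between these samples.

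Collagens are secreted proteins in which repeated glycine triplets let chains wind into a triple helix. Fibrillar collagens such as types I, III and V form the cables of connective tissue and are the main products of fibroblasts. Type IV forms the sheet of basement membranes, to which types XV and XVIII are attached. In the liver most fibrillar collagen is made by stellate cells and portal fibroblasts, while hepatocytes are a known source of type XVIII.

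The start regions of genes on which the results turn are printed here because they are the DNA that sets where transcription begins. RefSeq promoters (GRCm38.p6) were found for 35 of the 43 members, 38 promoters in all. Each line gives the last 120 bases before the annotated start, 5′ to 3′ on the gene's strand, with capitals marking the box CCAAT, the GC box GGGCGG, the TATA sequence TATAAA or the reverse complement of any of these. Col1a2 (chr6:4505498-4505617, plus strand), Col3a1 (chr1:45311418-45311537, plus) and Col5a1 (chr2:27886305-27886424, plus) belong to fibrillar genes called lower in every iHep group than in MEF. Col11a2 (chr17:34039018-34039137, plus) was called higher in every iHep group than at 48 h, and Col18a1 (chr10:77166531-77166650, minus) led the collagens of Hep. Col18a1 has 2 annotated starts, of which the upstream one is printed, and which of them Hep uses was not tested.
Col1a2: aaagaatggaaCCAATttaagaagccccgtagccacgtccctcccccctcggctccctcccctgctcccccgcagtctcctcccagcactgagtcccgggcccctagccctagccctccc
Col3a1: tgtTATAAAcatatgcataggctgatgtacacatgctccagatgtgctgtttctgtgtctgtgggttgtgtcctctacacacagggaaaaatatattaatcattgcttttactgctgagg
Col5a1: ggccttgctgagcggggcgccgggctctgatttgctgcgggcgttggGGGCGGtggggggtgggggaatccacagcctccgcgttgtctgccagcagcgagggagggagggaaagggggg
Col11a2: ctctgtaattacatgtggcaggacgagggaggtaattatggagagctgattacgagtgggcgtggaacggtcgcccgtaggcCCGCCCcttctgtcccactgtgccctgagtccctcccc
Col18a1: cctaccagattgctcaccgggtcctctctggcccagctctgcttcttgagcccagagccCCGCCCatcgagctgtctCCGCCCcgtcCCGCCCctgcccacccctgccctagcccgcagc

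The collagen promoters did not share one layout. In the 250 bases before the start, on both strands, GGGCGG was present in 57.9% of the 38 collagen promoters and in 32.7% of all 32851. CCAAT stood in 34.2% against 33.8%, and TATAAA in 13.2% against 12.4%. TGTTTAC, a sequence that Foxa proteins can bind, was in 2.63% against 3.17%, and CAAAGTCCA, a sequence that Hnf4alpha can bind, in 0% against 0.384%. The collagen promoters had a median GC content of 59% against 52.4%. These matches describe letters in a window and no binding was measured. Col4a1 and Col4a2 start 21 bases apart on opposite strands, Col4a5 and Col4a6 1343 bases apart, and Col18a1 has a further annotated start 52825 bases downstream.

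When libraries are compared, levels are CPM, the reads of a gene scaled to library size with TMM factors. When genes are compared, levels are deposited FPKM, which also divides by length. Libraries held 14592820 to 51743266 assigned reads. In a split that the labels do not explain, 14 libraries had 17.2 to 72.5 CPM of the small nuclear RNA Rn7sk and 14 had 0 to 5.98 CPM. The first set holds the 6 libraries of the full-length factors at 48 h, 3 of 6 iHep_Foxa1 and 5 of 6 iHep_Foxa3 libraries. Comparing 48 h cells with MEF, with 48h_Foxa3del2, or 48h_Foxa2 with iHep_Foxa2, therefore sets 1 kind of library against the other, and the 2 cannot be told apart there. A term for the library set, used below, is estimated from iHep_Foxa1 and iHep_Foxa3, the only groups that hold both kinds. For other groups it carries over the difference seen in those cells, and whether it holds there was not tested. MEF expressed 12 of 12 fibroblast markers at 1 CPM or more and Hep 10 of 10 hepatocyte markers. The iHep groups expressed 11 of 12 fibroblast markers and 8, 7 and 5 of 10 hepatocyte markers with Foxa1, Foxa2 and Foxa3. Hep expressed 6 of the 12 fibroblast markers, and the list summed to 1970 to 2149 CPM there. Hep libraries also held 8 of 10 stellate cell markers (summed 84.3 to 122 CPM), 8 of 10 endothelial markers (183 to 200 CPM) and 9 of 9 macrophage markers (346 to 437 CPM), and their part in the Hep collagen levels was not tested. The stellate sum was not particular to Hep. It was 58.8 to 79.4 CPM in MEF and 26.5 to 269, 70.6 to 263 and 95.1 to 680 in iHep_Foxa1, iHep_Foxa2 and iHep_Foxa3. In such bulk samples fewer cells of a type and less RNA per cell cannot be told apart.

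Collagen transcripts were a large share of fibroblast RNA and a small share of iHep and Hep RNA. They took 6.58% ± 0.119 of assigned reads in MEF (SD, n = 2). They took 3.58%, 3.55% and 3.65% in 48h_Foxa1, 48h_Foxa2 and 48h_Foxa3, and 1.69% ± 0.171 in 48h_Foxa3del2 (n = 2). The iHep shares were 0.187% ± 0.135 with Foxa1 (n = 6), 0.493% ± 0.168 with Foxa2 (n = 4) and 0.167% ± 0.0752 with Foxa3 (n = 6). Hep stood at 0.165% ± 0.0115 (n = 2). The highest iHep library, at 0.69%, lay below the lowest 48h_Foxa3del2 library, at 1.57%.

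The makeup of that collagen RNA differed as well. Fibrillar genes made up 78.8% ± 1.41 of summed collagen FPKM in MEF, about 84% in the 48 h groups and 69.7% ± 1.45 in 48h_Foxa3del2. They made up 19.6% ± 10.2, 19.3% ± 3.17 and 7.3% ± 3.19 in iHep_Foxa1, iHep_Foxa2 and iHep_Foxa3, and 5.86% ± 0.476 in Hep. Basement membrane genes held 7.46% ± 1.61 in MEF and 90.6% ± 1.8 in Hep. In the iHep groups they held 34.2% ± 20.7, 22.8% ± 5.51 and 37.2% ± 16.8, and the other collagens 46.2%, 57.9% and 55.5%. Individual iHep_Foxa1 libraries ran from 10.1% to 65% basement membrane, so the makeup of iHep collagen was not fixed even within 1 group.

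**Figure D1:**
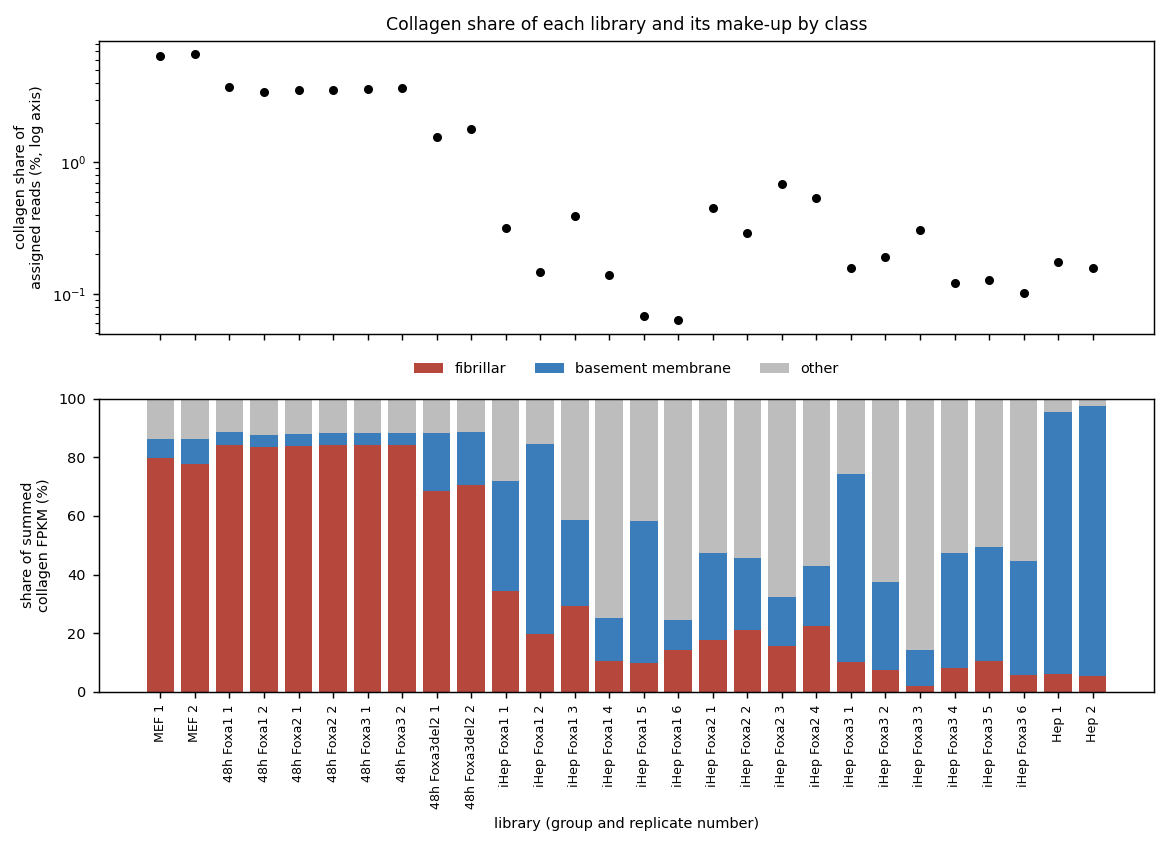
Upper panel: collagen share of assigned reads in each of the 28 libraries by group, on a log axis, in percent. Lower panel: share of fibrillar, basement membrane and other collagens in the summed collagen FPKM of each library. By group means, fibrillar genes fall from 78.8% in MEF to 7.3% in iHep_Foxa3 and basement membrane genes reach 90.6% in Hep.

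The order of collagens by FPKM changed with the group. Type I led in MEF, with Col1a1 at 4610 ± 684 and Col1a2 at 1786 ± 143, ahead of Col5a1 at 1242 and Col3a1 at 778. At 48 h Col1a1, Col1a2 and Col3a1 led, at 1883, 1559 and 1494 FPKM in 48h_Foxa1. In iHep_Foxa1 Col6a1 (68.5 ± 59.3), Col4a2 (51.3 ± 39.8) and Col4a1 (47.5 ± 32.4) led, and they did not differ beyond their spread. Col6a1 (255 ± 174) and Col6a2 (173 ± 150) led in iHep_Foxa2, and Col10a1 (126 ± 171) and Col6a1 (77.6 ± 61.2) in iHep_Foxa3, within their spread in both groups. Without iHep_Foxa3 replicate 3 the means there were 57.2 ± 19.5 for Col10a1 and 60.9 ± 51.04 for Col6a1 (n = 5). Hep had Col18a1 at 272 ± 12.8 and no other collagen above the 9.16 ± 1.58 of Col5a3.

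**Figure D2:**
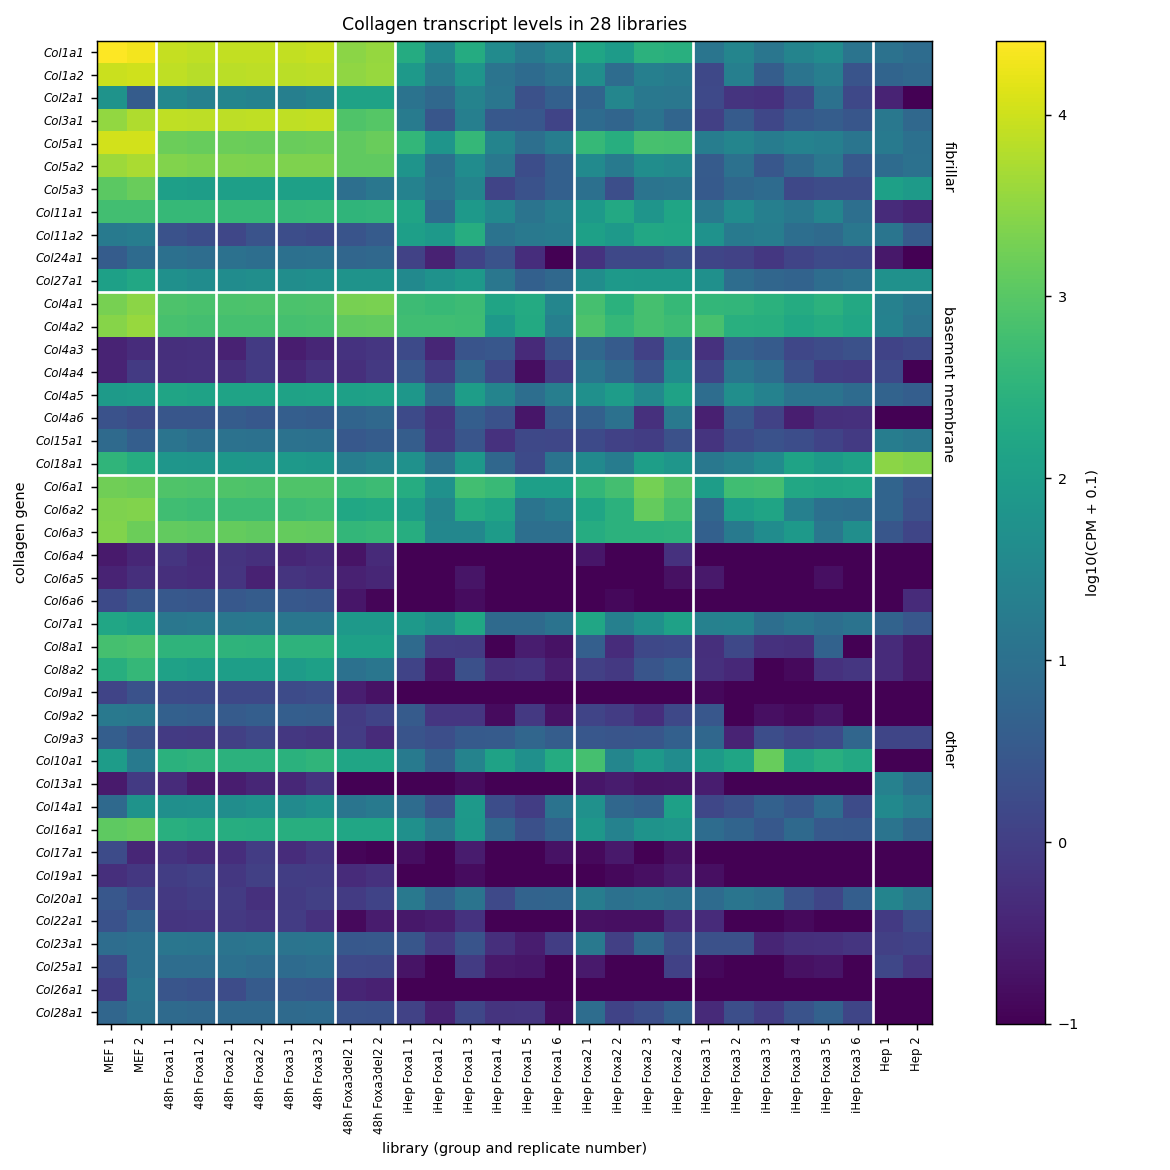
Level of each of the 43 collagens (rows, by class) in each of the 28 libraries (columns, by group) as log10 of CPM plus 0.1. The fibrillar rows are high in MEF and at 48 h and low in the iHep and Hep columns, and the Col18a1 row is highest in Hep.

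Each comparison was tested for all 16499 genes that passed a filter on low counts, with edgeR's quasi-likelihood F test, and calls are genes whose p, adjusted after Benjamini and Hochberg, was under 0.05. All 43 collagens passed the filter. Log2 fold changes are given ± their standard error. Hep against MEF had 29 collagens called lower and 3 higher, where 56.9% of all genes were called, 32.6% lower and 24.3% higher. Against MEF, iHep_Foxa1 had 32 lower and 0 higher (39.9% of genes called, 19.9% lower and 20% higher), iHep_Foxa2 24 lower and 4 higher (30.7%, 15.5% lower and 15.3% higher), and iHep_Foxa3 35 lower and 1 higher (46.6%, 23.7% lower and 22.9% higher). The share of collagens called lower was thus above that of all genes in these 4 comparisons, which share the MEF libraries. The median log2 fold change of the collagens was -3.98, -2.27 and -3.75 in the 3 iHep comparisons and -7.09 in Hep, against 0.0756, 0.0621, 0.0486 and -0.285 for all genes. With members at 0 in 1 group held at a floor of 3 counts over the group, the collagen medians were -3.74, -2.27, -3.65 and -4.32. Among libraries with little Rn7sk alone, the 3 iHep comparisons had 30, 26 and 26 collagens called lower, beside 18.8%, 20.2% and 16% of all genes. The iHep_Foxa3 arm is then 1 library, whose spread is assumed to be that of the other groups.

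**Figure D3:**
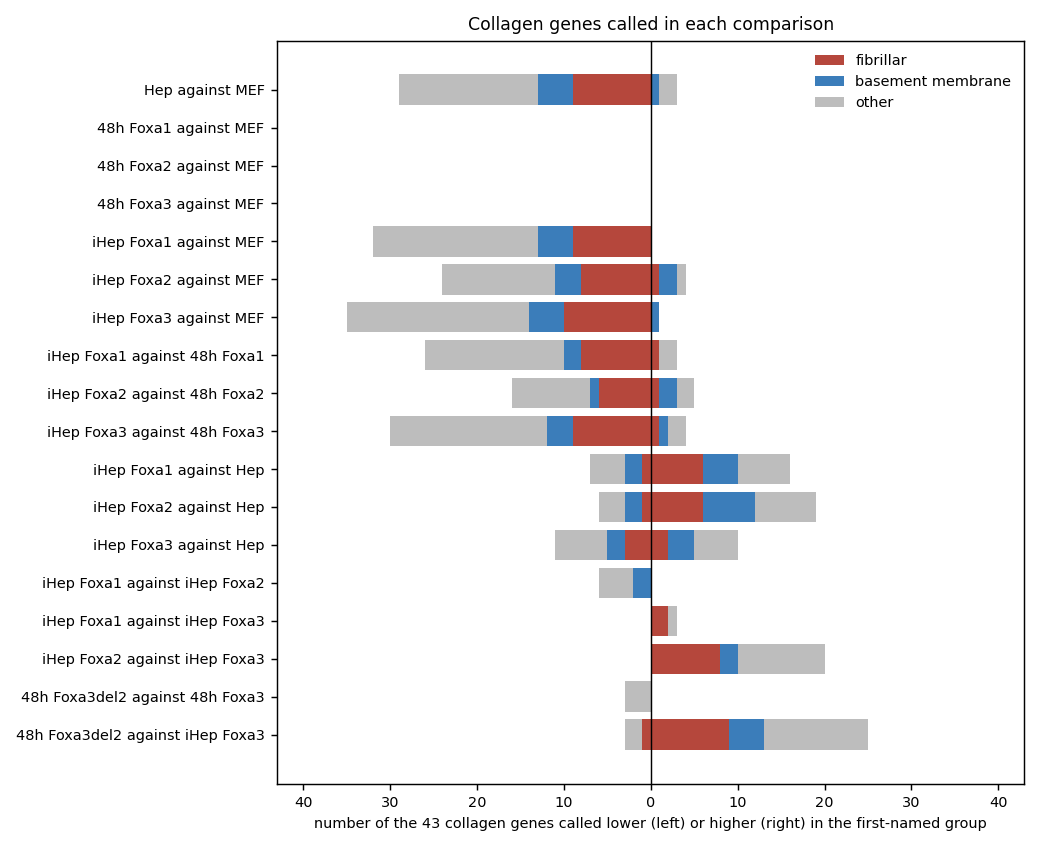
Number of collagens called lower (left of 0) and higher (right of 0) in each of 18 comparisons, split by class. The 4 comparisons of iHep or Hep with MEF reach 24 to 35 called lower, and the 3 comparisons of 48 h cells with MEF have none.

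Type I collagen, the main protein of fibroblast matrix, was far lower in all iHep groups and in Hep than in MEF. Col1a1, its major chain, had 25472 and 20378 CPM in MEF, and 8559 and 7588 in 48h_Foxa1. Its lowest, median and highest values were 16.2, 39.1 and 215 CPM in iHep_Foxa1 and 12, 20.5 and 39.8 in iHep_Foxa3, with 152, 93.6, 300.1 and 259 in iHep_Foxa2. Hep had 10.8 and 7.97. All iHep libraries lay far below both MEF libraries, and the lowest iHep_Foxa3 library lay just above Hep. Col1a1 fell against MEF in iHep_Foxa1, iHep_Foxa2, iHep_Foxa3 and Hep, with log2 fold changes of -7.97 ± 0.73, -6.83 ± 0.84, -9.996 ± 0.783 and -11.26 ± 1.36 (adjusted p 4.1e-08, 2.8e-06, 3.5e-09 and 4.2e-07). Its partner Col1a2 fell in the same 4 groups, with -8.23 ± 0.89, -8.70 ± 1.09, -9.88 ± 0.94 and -10.63 ± 1.62.

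Type III and type V chains, which copolymerise with type I, were also lower. Col3a1 had 3365 and 5753 CPM in MEF and 7775 and 7360 in 48h_Foxa1. In iHep_Foxa2 it had 7.52, 5.8, 11.5 and 5.75 CPM, and its highest values were 21 CPM in iHep_Foxa1 and 3.79 CPM in iHep_Foxa3. Hep had 14.3 and 6.6 CPM, within the range of the iHep libraries. Col3a1 fell against MEF with log2 fold changes of -9.14 ± 0.78, -9.22 ± 0.93 and -10.80 ± 0.82 in iHep_Foxa1, iHep_Foxa2 and iHep_Foxa3, and -8.77 ± 1.26 in Hep. Col5a1, a regulator of fibril width, had 11096 and 10970 CPM in MEF. It ran from 9.28 through a median of 46.1 to 397 CPM in iHep_Foxa1 and from 12.4 through 20.4 to 29 in iHep_Foxa3, with 422, 244, 671 and 658 in iHep_Foxa2. The iHep_Foxa2 libraries all lay above every iHep_Foxa3 library for this gene. Col5a1 fell against MEF with -6.19 ± 0.84, -4.47 ± 0.94 and -9.04 ± 0.93, in the order Foxa1, Foxa2 and Foxa3.

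Counted together, 9, 8 and 10 of the 11 fibrillar collagens were called lower in iHep_Foxa1, iHep_Foxa2 and iHep_Foxa3 than in MEF, and 9 in Hep. The shares of all genes called lower were 19.9%, 15.5%, 23.7% and 32.6%. The exception in direction was Col11a2, a chain of type XI collagen known from cartilage. It had 17 and 19.1 CPM in MEF, 2.21 and 1.82 in 48h_Foxa1, and 121, 81.1, 171 and 155 in iHep_Foxa2. Its lowest, median and highest values were 11.2, 49.7 and 237 CPM in iHep_Foxa1 and 7.41, 14.8 and 56.5 in iHep_Foxa3, while Hep had 12.5 and 3.49. Col11a2 rose by 2.87 ± 1.05 against MEF in iHep_Foxa2 (adjusted p 0.042), a call that was lost without any of iHep_Foxa2 replicates 1, 3 and 4 or either MEF library (adjusted p up to 0.205). Cartilage markers summed to 45.5 to 143 CPM in iHep_Foxa2 and 65.8 to 105 CPM in MEF, with Matn1 and Snorc at 0 counts in both, and their part in this result was not tested.

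**Figure D4:**
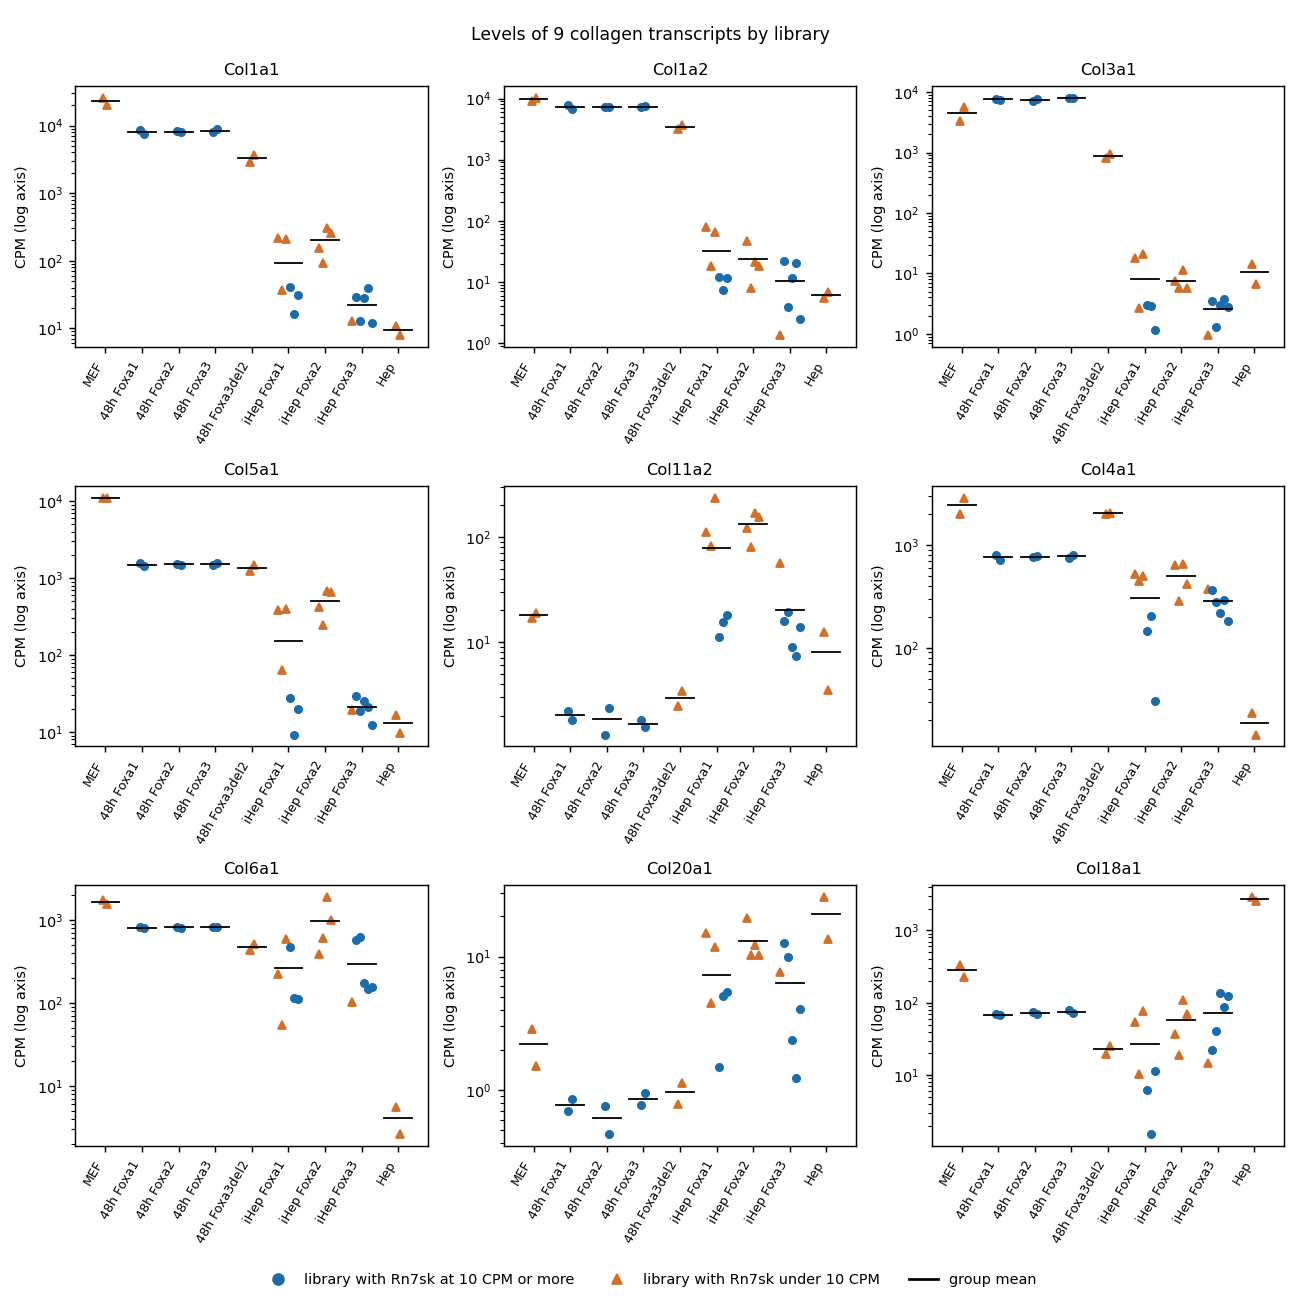
CPM of 9 collagens in every library by group, on log axes. Blue circles are libraries with 10 CPM or more of Rn7sk, orange triangles those under it, and bars are group means. Col1a1, Col1a2 and Col3a1 lie far below MEF in every iHep library, Col11a2 and Col20a1 lie above their 48 h level in iHep groups, and Col18a1 is highest in the Hep libraries.

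The 8 basement membrane collagens had 4, 3 and 4 members called lower and 0, 2 and 1 called higher in iHep_Foxa1, iHep_Foxa2 and iHep_Foxa3 than in MEF. In Hep 4 were lower and 1 higher. The shares of all genes called lower were 19.9%, 15.5% and 23.7% in the iHep groups and 32.6% in Hep. Those called higher were 20%, 15.3%, 22.9% and 24.3%. The main pair of type IV was among those called lower in every iHep group. Col4a1 had 1979 and 2887 CPM in MEF and 799.99 and 718 in 48h_Foxa1. It ran from 30.6 through 324 to 520.1 CPM in iHep_Foxa1 and from 182 through 286 to 373 in iHep_Foxa3, with 638, 287, 648 and 421 in iHep_Foxa2. Hep, with 23.1 and 14.3, lay below all iHep libraries. Col4a1 fell against MEF with log2 fold changes of -2.99 ± 0.53, -2.29 ± 0.59 and -3.09 ± 0.53 for Foxa1, Foxa2 and Foxa3, and Col4a2 with -3.33 ± 0.66, -2.47 ± 0.74 and -3.50 ± 0.66. The difference between these changes and those of the type I chains was not tested. Without MEF replicate 2 the falls in iHep_Foxa2 were no longer called (adjusted p 0.0506 for Col4a1 and 0.0843 for Col4a2). With a term for the library set the falls in iHep_Foxa3 were smaller and still called, at -1.82 and -1.85. In Hep the changes were -7.02 ± 0.93 and -7.48 ± 1.18.

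Col4a3 and Col4a4, chains of the type IV network of kidney filters, were near the floor in fibroblasts. Col4a4 had 0.239 and 0.714 CPM in MEF and 12.5, 6.38, 2.2 and 42.7 in iHep_Foxa2. In iHep_Foxa2 Col4a3 rose by 4.55 ± 1.21 and Col4a4 by 5.05 ± 1.69 against MEF (adjusted p 0.0065 and 0.027). The Col4a4 call was lost without iHep_Foxa2 replicate 4, its highest library, or either MEF library, and the Col4a3 call without either MEF library (adjusted p up to 0.191 and 0.0851). Col4a3 rose by 2.86 ± 1.09 in iHep_Foxa3, a call lost without iHep_Foxa3 replicate 2 or 3 or either MEF library (adjusted p up to 0.198).

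Col18a1, whose protein is cut to release endostatin, was the dominant collagen of Hep. It had 2880 and 2555 CPM in Hep and 337 and 227 in MEF. Values ran from 1.54 through 10.9 to 76.6 CPM in iHep_Foxa1 and from 14.6 through 64.6 to 138 in iHep_Foxa3, with 36.9, 18.8, 108 and 70.7 in iHep_Foxa2. No library of any other group came near the Hep libraries. Col18a1 rose by 3.27 ± 1.25 in Hep against MEF (adjusted p 0.03). That call was lost when any of the 4 libraries was left out (adjusted p up to 0.137). It was called lower in iHep_Foxa1 than in MEF, at -3.40 ± 0.85, and not called in iHep_Foxa2 or iHep_Foxa3.

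Type VI collagen, which forms beaded filaments around cells, included the chain with the highest mean FPKM of iHep_Foxa1 and iHep_Foxa2, Col6a1, within the spread of its neighbours there. It had 1726 and 1541 CPM in MEF, 383, 606, 1879 and 998 in iHep_Foxa2, and 5.51 and 2.62 in Hep. It ran from 53.5 through 169 to 584 CPM in iHep_Foxa1 and from 103 through 166 to 623 in iHep_Foxa3. iHep_Foxa2 thus overlapped MEF for this gene, and Hep lay below all iHep libraries. All 6 type VI genes were called lower in iHep_Foxa1 and in iHep_Foxa3 than in MEF, 3 in iHep_Foxa2 and 4 in Hep. Of these genes, Col6a4 and Col6a5 were near the floor in MEF, at 0.144 and 0.285 CPM and at 0.239 and 0.428 CPM. The shares of all genes called lower were 19.9%, 15.5% and 23.7% with Foxa1, Foxa2 and Foxa3 and 32.6% in Hep. Col6a1 fell with log2 fold changes of -2.65 ± 0.68 in iHep_Foxa1 and -2.47 ± 0.68 in iHep_Foxa3. In iHep_Foxa2 the change was -0.76 ± 0.77 (adjusted p 0.50).

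Types VIII and X, short chains that build hexagonal lattices, gave different results. Col8a1, known from vessel walls and the cornea, had 640.4 and 710 CPM in MEF and at most 7.24 CPM in iHep_Foxa1, 4.23 in iHep_Foxa2 and 5.02 in iHep_Foxa3. It fell against MEF with -8.72 ± 1.18, -8.48 ± 1.40 and -9.02 ± 1.20, in the order Foxa1, Foxa2 and Foxa3. Col10a1, known from hypertrophic cartilage, had 95.8 and 16.8 CPM in MEF, 287 and 322 in 48h_Foxa1, and 0 counts in both Hep libraries. It ran from 4.55 through 38.7 to 210 CPM in iHep_Foxa1 and from 88.3 through 179 to 1441 in iHep_Foxa3, with 648, 30.1, 85.7 and 42.2 in iHep_Foxa2. Col10a1 was not called in any iHep group against MEF. Set against a floor of 3 counts over the Hep group, it was at least 394-fold higher in iHep_Foxa1 and at least 2062-fold higher in iHep_Foxa3, by group means. Without the highest library these bounds were 247-fold (iHep_Foxa1 replicate 6) and 919-fold (iHep_Foxa3 replicate 3). The summed level of 7 bone markers lay between 144 and 717 CPM with Foxa1, 189 and 3311 with Foxa2, and 92.7 and 1439 with Foxa3, where 2 of them reached 1 CPM in each group, and their part in the Col10a1 level was not tested. For the same list MEF had 998 to 1364 CPM and 48h_Foxa1 212 to 241.

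Of the smaller families, the 8 collagens that sit on fibril surfaces (FACIT) had 5, 5 and 6 called lower in iHep_Foxa1, iHep_Foxa2 and iHep_Foxa3 than in MEF, and 4 in Hep. The 4 transmembrane collagens had 4, 2 and 4 called lower in iHep cells and 2 in Hep. Beside both counts, 19.9%, 15.5% and 23.7% of all genes were called lower in the iHep groups and 32.6% in Hep. Among the transmembrane genes Col13a1 and Col17a1 were near the floor in MEF, with 3 and 15 and with 34 and 6 counts. Col13a1, a transmembrane collagen, was instead a collagen of Hep, with 23.6 and 9.59 CPM there, 0.144 and 0.714 in MEF and at most 0.165 in any iHep library. It rose by 5.26 ± 1.24 in Hep against MEF (adjusted p 0.0011). Col20a1, a FACIT member, had 27.9 and 13.6 CPM in Hep and 2.87 and 1.52 in MEF, a rise of 3.24 ± 0.93 that was not called without MEF replicate 2 (adjusted p 0.0504).

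No collagen was called between any 48 h group and MEF by edgeR, where 5.25%, 5.48% and 5.21% of all genes were called for Foxa1, Foxa2 and Foxa3. Of all genes 2.13%, 2.2% and 2.22% were called higher, and 3.12%, 3.28% and 2.98% lower. An unadjusted p below 0.05 was reached by 8, 7 and 8 collagens. The DESeq2 Wald test called 5, 5 and 4, all lower, with 7.11%, 7.3% and 6.9% of all genes lower. With the compared groups fitted alone, 21, 21 and 22 were called, of which 20 lower each time, and that fit called 20.8%, 20.8% and 20.8% of all genes lower. In each comparison 22 of the 43 collagens had both 48 h values below both MEF values, as did 32.1%, 32.4% and 32.2% of all genes. Col5a1 had 1553 and 1431 CPM in 48h_Foxa1 against 11096 and 10970 in MEF, a log2 difference of -2.89 ± 1.15 (adjusted p 0.13). Col3a1 had its higher values at 48 h, with a log2 difference of 0.73 ± 0.90 (adjusted p 0.67). The 48 h groups had nearly the same values as each other, with Col1a1 at 8074 ± 686, 8145 ± 97.5 and 8410 ± 486 CPM. These 3 comparisons share the MEF libraries and set libraries with much Rn7sk against libraries with little. With a term for the library set, Col1a1 differed by 0.09, 0.10 and 0.15 and Col1a2 by 1.01, 0.98 and 1.02, with none called. That term is estimated from iHep_Foxa1 and iHep_Foxa3 alone, so it cannot separate library set from group here.

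Collagens were called lower in iHep cells than at 48 h with each factor. Against the 48 h cells given the same factor, iHep_Foxa1 had 26 collagens called lower and 3 higher (42% of all genes called, 20.7% lower and 21.2% higher). iHep_Foxa2 had 16 lower and 5 higher (40.1%, 19.7% lower and 20.4% higher), and iHep_Foxa3 30 lower and 4 higher (40.6%, 21% lower and 19.6% higher). The share of collagens called lower exceeded that of all genes in all 3, and the share called higher did not. These 3 comparisons share no library, and 16 collagens were called lower in all of them, which is 61.5% of the Foxa1, 100% of the Foxa2 and 53.3% of the Foxa3 list. Of all genes 12.7% were called lower in all 3, which is 61.3%, 64.4% and 60.6% of the lists of all genes. The 16 include Col6a5, Col17a1 and Col19a1, which stayed under 1 CPM in every 48 h library. Col6a5 had 0.427 and 0.382 CPM in 48h_Foxa1 and at most 0.132 in any iHep library. Genes this low can pass the low-count filter through the groups where they are high, so their calls of lower are partly built in. Among libraries with much Rn7sk alone, 33 collagens were called lower with Foxa1 and 33 with Foxa3. The same fits called 26.6% and 24.9% of all genes lower. iHep_Foxa2 has no such library, and its comparison sets little Rn7sk against much. With a library set term, which is estimated from iHep_Foxa1 and iHep_Foxa3, it had 24 called lower (15.8% of all genes).

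Among called members with at least 5 CPM in the higher group, Col3a1 had the largest fall in each of them, with log2 fold changes of -9.87 ± 0.79, -9.94 ± 0.96 and -11.60 ± 0.84. Col1a1 fell with -6.46 ± 0.70, -5.34 ± 0.79 and -8.55 ± 0.75, and Col8a1 with -7.70 ± 1.15, -7.40 ± 1.35 and -7.93 ± 1.16. These 3 genes were thus called lower with every factor. Over all libraries Col4a2 was not called in any of the 3, at -0.997 ± 0.686, -0.13 ± 0.76 and -1.19 ± 0.68. Among libraries with much Rn7sk it had 20.9 to 197 CPM in iHep_Foxa1 against 677 and 605 in 48h_Foxa1. In iHep_Foxa3 such libraries had 162 to 252 CPM against 644 and 665 in 48h_Foxa3. With little Rn7sk it had 525 to 551 CPM in iHep_Foxa1 and 668 in the single iHep_Foxa3 library.

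Only 2 of the 43 members rose in all 3 comparisons of iHep with 48 h cells, Col11a2 and Col20a1, where 12.1% of all genes did. Col11a2 rose by 5.29 ± 1.20, 6.16 ± 1.27 and 3.59 ± 1.09 (adjusted p 0.0013, 0.00074 and 0.011), and Col20a1 by 3.22 ± 0.86, 4.40 ± 0.94 and 2.86 ± 0.84. With a library set term the Col11a2 rise in iHep_Foxa1 was 3.08 and in iHep_Foxa2 3.26, both still called. In the limma fit on log2(FPKM + 1) the Foxa3 rises of Col11a2 and Col20a1 were not called (adjusted p 0.0794 and 0.0612). The Col20a1 calls with Foxa1 and Foxa3, and the Col11a2 call with Foxa3, were also lost without either 48 h library (adjusted p up to 0.0682, 0.0996 and 0.106). Col20a1 stayed low in absolute terms, with 19.6, 10.3, 12.2 and 10.3 CPM in iHep_Foxa2 against 0.766 and 0.468 in 48h_Foxa2.

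Against Hep, collagens were called in both directions in every iHep group. iHep_Foxa1 had 16 collagens called higher and 7 lower (60.1% of all genes called, 35.3% higher and 24.8% lower). iHep_Foxa2 had 19 and 6 (60.6%, 35.2% higher and 25.4% lower), and iHep_Foxa3 10 and 11 (61.9%, 35.3% higher and 26.7% lower). The share of collagens called higher was near that of all genes with Foxa1, above it with Foxa2 and below it with Foxa3, in comparisons that share the Hep libraries. The median collagen log2 difference over the 40, 41 and 40 members detected in either group was 2.30, 3.96 and 1.26, and 1.54, 2.57 and 0.81 with members at 0 held at the floor. DESeq2 size factors moved the median of all genes by -0.21, -0.25 and -0.23 in these 3 comparisons and by 0.16 in Hep against MEF, and turned the direction of no called collagen. Col6a1 was higher by 6.00 ± 1.11, 7.89 ± 1.23 and 6.18 ± 1.12, Col4a1 by 4.03 ± 0.76, 4.73 ± 0.81 and 3.93 ± 0.76, and Col11a1 by 7.32 ± 1.30, 8.60 ± 1.36 and 6.13 ± 1.27. Col18a1, Col13a1 and Col20a1 had been called higher than in MEF from these same Hep libraries, so lower levels in iHep groups are partly built in. Col20a1 reached 15, 19.6 and 12.6 CPM in iHep_Foxa1, iHep_Foxa2 and iHep_Foxa3, against 27.9 and 13.6 in Hep. Col18a1 and Col13a1 were lower in all iHep groups. Col18a1 had log2 differences of -6.67 ± 0.91, -5.54 ± 1.04 and -5.24 ± 0.88, the last of them -3.42 with a library set term, and Col13a1 -10.52 ± 1.06, -7.09 ± 1.005 and -9.01 ± 0.94. On the log2(FPKM + 1) scale, which shrinks low genes, the Col13a1 differences were -1.94, -1.88 and -1.93, all called.

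The type I chains were set against Hep as well. Col1a2 had 5.51 and 6.73 CPM in Hep. It ran from 7.51 to 78.4 CPM in iHep_Foxa1, from 7.86 to 46.1 in iHep_Foxa2 and from 1.36 to 21.6 in iHep_Foxa3. Col1a1 was higher than in Hep by 3.29 ± 0.91 in iHep_Foxa1 and 4.42 ± 0.99 in iHep_Foxa2 (adjusted p 0.0035 and 0.00055). In iHep_Foxa3 the difference was 1.26 ± 0.80 (adjusted p 0.18), which does not show that the levels were equal. The iHep_Foxa1 call was lost without Hep replicate 2 (adjusted p 0.0503).

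Between iHep groups, the mean collagen share of reads was highest with Foxa2. Cell markers differed too, with fibroblast sums of 841 to 5533, 3251 to 5802 and 984 to 2806 CPM for Foxa1, Foxa2 and Foxa3, and hepatocyte sums of 5751 to 32144, 2399 to 6898 and 10669 to 26291. Hep itself had 1970 to 2149 CPM for the fibroblast list, so that sum does not measure fibroblast content alone. The part of these markers in the results here was not tested. iHep_Foxa2 against iHep_Foxa3 had 20 collagens called higher and 0 lower (31.1% of all genes called, 16% higher and 15.1% lower). Col5a1 was higher by 4.57 ± 0.75 (adjusted p 0.00046), Col14a1 by 3.71 ± 1.03, Col6a2 by 3.63 ± 0.87 and Col16a1 by 3.54 ± 0.68. iHep_Foxa1 against iHep_Foxa2 had 6 called lower and 0 higher (11%, 3.87% lower and 7.1% higher). Among them was Col6a1 at -1.90 ± 0.58, not called without any of iHep_Foxa1 replicates 2, 5 and 6 or iHep_Foxa2 replicates 3 and 4 (adjusted p up to 0.171). iHep_Foxa1 against iHep_Foxa3 had 3 called higher and 0 lower (8.32%, 4.41% higher and 3.92% lower), which were Col5a1, Col16a1 and Col1a1 at 2.84 ± 0.67, 2.43 ± 0.62 and 2.03 ± 0.53. Without iHep_Foxa1 replicate 3 neither Col16a1 nor Col1a1 was called, nor was Col16a1 without iHep_Foxa3 replicate 5 or Col1a1 without iHep_Foxa1 replicate 1 (adjusted p up to 0.0564 and 0.0602). All 4 iHep_Foxa2 libraries had little Rn7sk and 5 of 6 iHep_Foxa3 libraries had much. With a term for the library set, edgeR called no collagen in any of the 3 comparisons (0.939%, 12.6% and 4.85% of all genes called, in the order Foxa1 and Foxa2, Foxa1 and Foxa3, Foxa2 and Foxa3), with 11, 5 and 7 at an unadjusted p below 0.05, while the DESeq2 Wald test without that term called 9, 12 and 21 (19%, 13.4% and 34%). Among libraries with much Rn7sk alone, iHep_Foxa1 had 2 called lower than iHep_Foxa3 (7.86% of all genes), and the Col5a1 difference was -0.16. Among libraries with little Rn7sk alone, 4 were called higher in iHep_Foxa2 (2.41% of all genes) than in the single iHep_Foxa3 library, which is assumed to vary like the other groups.

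Within iHep_Foxa1 alone, the library set went with the collagen level. The 3 libraries with much Rn7sk had 17 collagens called lower and 1 higher than the 3 with little (37.3% of all genes called, 21.4% lower and 15.9% higher). Col5a1 had 18.98 ± 9.32 CPM with much Rn7sk and 283 ± 189 with little, a difference of -3.89 ± 0.56. Col4a1 had 127 ± 88.4 against 487 ± 39.2 CPM. Col10a1 ran the other way, with 130 ± 79.1 against 15.8 ± 10.6 CPM and a difference of 3.05 ± 1.13.

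The del2 libraries were set against 48h_Foxa3, where edgeR called few genes of any kind. RNA of the introduced factors had different levels, with Hnf4a at 732 ± 6.5 CPM in 48h_Foxa3del2 and 81.3 ± 8.18 in 48h_Foxa3, and Foxa3 at 559 ± 74.6 and 72.4 ± 6.71. Summed markers of hepatocytes were 487 to 512 against 11.1 to 15.4 CPM, of stellate cells 196 to 218 against 76.4 to 81.9, and of leukocytes 55.7 to 61.1 against 9.85 to 10.1. The fibroblast sums were 10125 to 10676 against 12900 to 13098 CPM, and the part of these in the collagen differences was not tested. There were 3 collagens called lower and 0 higher (2.98% of all genes called, 1.58% lower and 1.4% higher), and 10 had an unadjusted p below 0.05. Col3a1 had 816 and 962 CPM in 48h_Foxa3del2 against 7879 and 7955 in 48h_Foxa3, a log2 difference of -3.15 ± 0.97 (adjusted p 0.08). Col1a1 had 2895 and 3642 against 8067 and 8754 CPM (-1.36 ± 0.90, adjusted p 0.48), and Col4a1 1995 and 2060 against 754 and 803 CPM (1.38 ± 0.72, adjusted p 0.35). None of these 3 differences was called. With a library set term Col3a1 and Col1a1 were called, at -4.79 and -2.96, and Col4a1 turned to -0.11. That term is carried over from iHep_Foxa1 and iHep_Foxa3, since neither group compared here holds both library sets. The called genes were of low level. Col6a6 had 2.84 ± 0.241 CPM in 48h_Foxa3 and 0.0646 ± 0.0632 in the del2 libraries, Col9a1 1.73 ± 0.175 and 0.131 ± 0.0723, and Col13a1 0.425 ± 0.187 and 0 counts, at least 14.9-fold lower. All 3 calls were lost when any 1 of the 4 libraries was left out (adjusted p up to 0.203, 0.312 and 0.282). The DESeq2 Wald test called 7 lower (4.56% of all genes). The compared groups fitted alone gave 29 lower and 8 higher (33.3% and 32%), and a library set term 15 lower (12.4%).

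Compared with iHep_Foxa3, the del2 libraries were higher in most fibrillar collagens, with 9 of 11 called higher and 1 lower. Over all collagens 25 were called higher and 3 lower (32.7% of all genes called, 16.9% higher and 15.7% lower). Among libraries with little Rn7sk alone there were 14 higher and 4 lower (16.5% and 19% of all genes), a comparison with the single such iHep_Foxa3 library, which is assumed to vary like the other groups. That comparison may not be matched, since the del2 libraries had 373 ± 1.05 CPM of Rps29, unlike MEF, iHep_Foxa2 and Hep. Over all libraries Col3a1 was higher by 8.44 ± 0.76, Col1a2 by 8.40 ± 0.90, Col5a2 by 7.49 ± 0.81 and Col1a1 by 7.19 ± 0.71. Of the 3 called lower, Col11a2 was at -2.79 ± 1.03 and Col20a1 at -2.71 ± 0.83, neither of them called in the limma fit on log2(FPKM + 1) (adjusted p 0.151 and 0.0786), and both calls were lost without either del2 library, the Col11a2 call also without iHep_Foxa3 replicate 1 or 3 (adjusted p up to 0.239 and 0.152). The fibroblast markers summed to 10125 to 10676 CPM in the del2 libraries and 984 to 2806 in iHep_Foxa3, and the hepatocyte markers to 487 to 512 against 10669 to 26291. Their part in the collagen difference was not tested.

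Chains that share a triple helix did not keep 1 ratio. Col1a1 and Col1a2 join in type I collagen with more of the first, and their FPKM ratio was 2.61 ± 0.591 in MEF, 1.21 to 1.25 on average in the 48 h groups and 1.03 ± 0.0471 in 48h_Foxa3del2. It was 2.94 ± 0.598, 11.9 ± 5.7 and 4.21 ± 3.19 in iHep_Foxa1, iHep_Foxa2 and iHep_Foxa3, and 1.71 ± 0.589 in Hep. In iHep_Foxa2 the 4 libraries ran from 3.6 to 15.7, above both MEF libraries. Col5a1 to Col5a2 was 1.87 ± 0.301 in MEF, 0.514 to 0.528 at 48 h and 11.8 ± 2.57 in iHep_Foxa2. Col6a1 to Col6a2 was 0.657 ± 0.0639 in MEF and 10.5 ± 5.72 in iHep_Foxa3. The 48 h libraries of the full-length factors had much Rn7sk, and the MEF and iHep_Foxa2 libraries had little. Between these, group and library set cannot be told apart.

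The type IV pair had group means between 0.726 and 1.57. Col4a1 to Col4a2 was 0.726 ± 0.0211 in MEF, 1.11 ± 0.338, 0.811 ± 0.107 and 1.11 ± 0.309 in iHep_Foxa1, iHep_Foxa2 and iHep_Foxa3, 1.57 ± 0.0358 in 48h_Foxa3del2 and 1.05 ± 0.186 in Hep. In iHep_Foxa1 the libraries with little Rn7sk had 0.919, 0.779 and 0.915 and those with much 1.64, 1.01 and 1.41. In iHep_Foxa3 the library with little had 0.541 and those with much 1.09 to 1.42. The del2 libraries, with little Rn7sk, went the other way, and the part of the library set was not tested. Ratios were taken only where both chains had 10 counts or more, and they are given with no test.

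**Figure D5:**
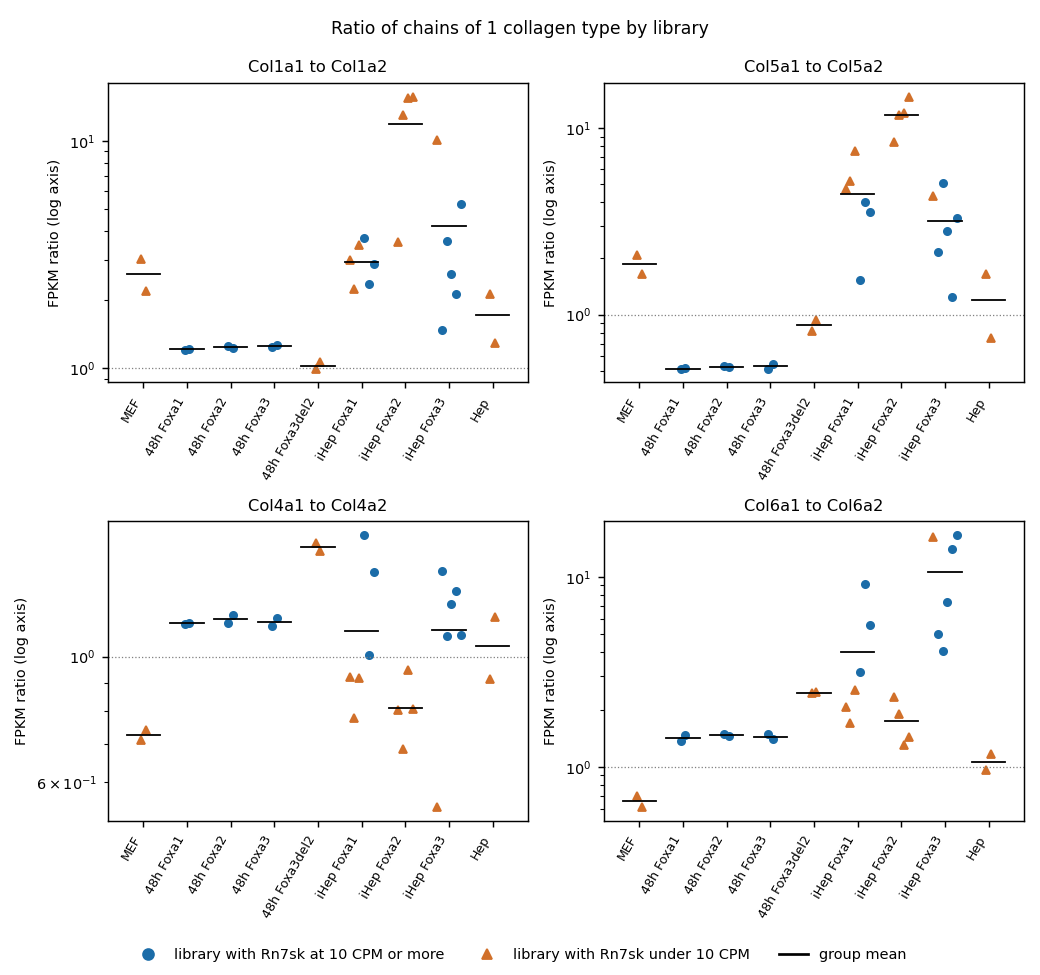
FPKM ratio of 4 chain pairs in each library by group, on log axes. The Col1a1 to Col1a2 and Col5a1 to Col5a2 ratios are highest in iHep_Foxa2, at means of 11.9 and 11.8, while Col4a1 to Col4a2 stays between 0.726 and 1.57 in the group means.

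The enzymes and chaperones that fold collagen chains were counted next. Of 20 such genes, 12, 12 and 13 were called lower and 1, 2 and 1 higher in iHep_Foxa1, iHep_Foxa2 and iHep_Foxa3 than in MEF, and 15 lower and 3 higher in Hep. Of all genes 19.9%, 15.5% and 23.7% were called lower and 20%, 15.3% and 22.9% higher in the iHep groups. In Hep 32.6% of all genes were called lower and 24.3% higher. Serpinh1, the collagen chaperone Hsp47, had 1852 ± 66.8 CPM in MEF, 281 ± 108, 272 ± 82 and 223 ± 41.2 in the iHep groups and 10.4 ± 0.126 in Hep. It fell with log2 fold changes of -2.72 ± 0.28, -2.77 ± 0.31 and -3.06 ± 0.27 in the iHep groups and -7.48 ± 0.50 in Hep. P4ha1, a catalytic subunit of prolyl 4-hydroxylase, had 186 ± 36.2 CPM in MEF and 55.7 ± 11.7, 64.1 ± 9.46 and 84.7 ± 12.2 in iHep cells. Against Hep, 14, 12 and 13 of these 20 genes were called higher in the iHep groups and 3 lower each time. Of all genes 35.3%, 35.2% and 35.3% were called higher there and 24.8%, 25.4% and 26.7% lower. Tmem38b, an ion channel of the endoplasmic reticulum, was among the 3 called lower, at 226 ± 46.1 CPM in Hep and 42.7 ± 12 in iHep_Foxa1.

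Genes that trim, cross-link or bind the secreted chains were lower too. Of 13 tested genes of processing and cross-linking, 11, 11 and 10 were called lower and 0 higher in the iHep groups than in MEF, and 12 lower in Hep. The shares of all genes called lower were 19.9%, 15.5% and 23.7% in the iHep groups and 32.6% in Hep. Sparc, a matrix protein that binds collagen, had 4139 ± 423 CPM in MEF, 97.4 ± 72.4, 200.1 ± 73.3 and 53.4 ± 9.89 in the iHep groups and 46 ± 2.74 in Hep. Loxl1, a cross-linking oxidase, was higher in iHep_Foxa2 than in iHep_Foxa3 by 4.00 ± 0.69, with 73.5 ± 47.1 and 4.59 ± 2.93 CPM. Every iHep_Foxa2 library had little Rn7sk and all but 1 iHep_Foxa3 library had much, so this difference mixes factor and library set.

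The list of collagen breakdown holds 7 tested genes of degradation or uptake and 3 Timp genes, which encode inhibitors of matrix proteases. Of the 7, 5 were called lower in each iHep group than in MEF, with 1, 0 and 1 higher, and 6 were lower in Hep. Of the 3 inhibitors, Timp1 and Timp2 were called lower in each iHep group and all 3 in Hep. Beside these few genes, 19.9%, 15.5% and 23.7% of all genes were called lower in the iHep groups and 32.6% in Hep. The shares of all genes called higher in the iHep groups were 20%, 15.3% and 22.9%. Mrc2, a receptor that takes up collagen, had 538 ± 170 CPM in MEF and 4.28 ± 2.86 in iHep_Foxa3. Mmp13, a collagenase that cuts fibrillar collagen, had 592 ± 347 CPM in iHep_Foxa3, 10.7 ± 8.32 in iHep_Foxa2 and 5.55 ± 6.35 in MEF. The log2 difference of iHep_Foxa2 from iHep_Foxa3 was -5.80 ± 0.88 (adjusted p 0.00026). It too sets libraries with little Rn7sk mostly against libraries with much, and so mixes factor and library set. The collagen receptor Ddr1, found on epithelia, had 136 ± 23 CPM in MEF, 388 ± 162, 376 ± 35.2 and 388 ± 137 in the iHep groups, and 0.492 ± 0.343 in Hep. Of the 2 Ddr genes, Ddr1 was called higher against MEF in all 3 iHep groups and Ddr2 lower with Foxa1 and Foxa3, and both were lower in Hep.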

How the data were processed

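Poly(A) RNA was sequenced after a stranded library kit, per the labels' protocols, in 28 libraries of 9 groups. The submitters' processing notes name BWA 0.7.12 and mm9, while the quantifier, its annotation and its use of strand (not given in the sources used here) are unknown, so antisense genes cannot be told apart. Per the file headers, each deposited table lists transcripts with estimated counts (Z), FPKM and a fraction of the library (THETA, which the authors deposited and which was not used). FPKM recomputed from the authors' counts and lengths differed by at most 0.459% for transcripts with 1000 counts or more. Transcripts were named through RefSeq (GRCm38.p6) for 30190 of 30710 and GENCODE for 181. The 339 unmatched held 0.609% to 3.21% of reads, and Col12a1 was not analysed here.

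Estimated counts were summed per gene and rounded. edgeR 4.0.16 (R 4.3.3) fitted all 28 libraries with 1 coefficient per group (19 residual degrees of freedom), TMM factors and its default low-count filter, which left 16499 genes. Tests were 2-sided quasi-likelihood F tests, adjusted over all genes after Benjamini and Hochberg with a threshold of 0.05. The fit was tested on simulated data. Alternatives used DESeq2 1.42.0, limma 3.58.1 on log2(FPKM + 1) of genes with FPKM of 1 or more in 2 libraries, other filters, a library set term (Rn7sk at 10 CPM or more) and libraries left out. Libraries held 14592820 to 51743266 reads, and floors of 3 counts cover counting error only. The members, lists and tests were chosen with earlier results of these data known. Named pathway genes are up to 6 called members of a list with the smallest adjusted p per comparison. Collagens given by size of change are the 4 largest called rises and falls whose higher group mean was at least 5 CPM, and any other collagen could be named.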

Additional observations from a re-analysis of the deposited data

Results flagged for a closer look

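In 18 of 108 sets of library values checked, 1 library lay far from the rest of its group by Dixon's criterion. For normally distributed values chance alone would flag about 1 in 20 such sets. CPM values are skewed and some sets have reads in a single library, so that rate need not hold here.

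In iHep_Foxa1, replicate 1 stood apart for Col6a3 (236 CPM), Col8a1 (7.24 CPM) and Col9a2 (3.44 CPM). Replicate 3 of that group stood apart for Col13a1 (0.0515 CPM), Col14a1 (85.9 CPM) and Col25a1 (0.773 CPM). In iHep_Foxa2, replicate 1 was high for Col10a1 (648 CPM) and low for Col27a1 (45.05 CPM), and replicate 4 was high for Col25a1 (1.04 CPM).

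In iHep_Foxa3, replicate 1, the only library of its group with little Rn7sk, was high for Col4a2 (668 CPM), Col9a2 (2.88 CPM), Col11a2 (56.5 CPM), Col13a1 (0.165 CPM) and Col27a1 (52.1 CPM). Replicate 3 was high for Col10a1 (1441 CPM), replicate 2 for Col4a6 (2.89 CPM), and replicate 5 for Col2a1 (10.2 CPM) and Col8a1 (5.02 CPM).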

How the results depend on the processing

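Counts of called collagens are given as totals. Leaving out 1 library gave 25 to 28 called in Hep against MEF, 0 to 0 in each 48 h group, 25 to 35, 14 to 25 and 28 to 37 in iHep_Foxa1, iHep_Foxa2 and iHep_Foxa3 against MEF, 23 to 33, 17 to 21 and 26 to 35 against 48 h, and 10 to 25, 18 to 26 and 14 to 21 against Hep. It gave 0 to 13, 1 to 9 and 14 to 24 between iHep groups (Foxa1 and Foxa2, Foxa1 and Foxa3, Foxa2 and Foxa3), 0 to 0 for del2 against 48h_Foxa3 and 17 to 27 against iHep_Foxa3. In every alternative run, 22 of 32 calls of Hep against MEF were kept, and 23 of 32, 12 of 28 and 21 of 36 of the iHep groups against MEF, 21 of 29, 15 of 21 and 25 of 34 against 48 h, and 10 of 23, 18 of 25 and 9 of 21 against Hep. Kept calls were 0 of 6, 0 of 3 and 0 of 20 between iHep groups, 0 of 3 for del2 against 48h_Foxa3 and 10 of 28 against iHep_Foxa3.

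For the 48 h groups against MEF, totals were 21, 21 and 22 with the compared groups alone, 5, 6 and 6 with limma, and 5, 5 and 4 with DESeq2. Libraries share only a replicate number: deviations of same-numbered libraries correlated at -0.177 to 0.209, not above 0.1 in every pair of any comparison, and a library correlated best with its own number in 7 of 28 checks between iHep groups. With the replicate block these totals were 3, 3 and 4, and the block left 0 between iHep_Foxa1 and iHep_Foxa2, 0 between iHep_Foxa1 and iHep_Foxa3 and 11 between iHep_Foxa2 and iHep_Foxa3. The compared groups alone gave 13 for iHep_Foxa1 against Hep, 0 against iHep_Foxa2, 0 against iHep_Foxa3 and 37 for del2 against 48h_Foxa3. Limma gave 11 for iHep_Foxa3 against Hep, 0 for iHep_Foxa1 against iHep_Foxa3 and 7 for del2 against 48h_Foxa3, and DESeq2 12 and 7 in the last 2. With the library set term there were 0 between any iHep groups, 15 for del2 against 48h_Foxa3 and 15 against iHep_Foxa3. Libraries with little Rn7sk alone gave 0 for iHep_Foxa1 against iHep_Foxa2, 4 for iHep_Foxa2 against iHep_Foxa3 and 18 for del2 against iHep_Foxa3. Where these fits called 0, an unadjusted p below 0.05 was reached in edgeR by 10 and 10 collagens with the block, 7 and 12 with the compared groups alone and 8 with little Rn7sk alone, and by 8 in limma. The cause was not tested, apart from the fewer libraries in the fits of part of the data.

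Directions turned with the library set term for 48h_Foxa1, 48h_Foxa2 and 48h_Foxa3 against MEF in Col1a1 (0.0916, 0.104 and 0.151), Col1a2 (1.01, 0.98 and 1.02), Col5a1 (0.14, 0.15 and 0.17) and Col5a2 (0.61, 0.59 and 0.60). They also turned for Col7a1 in iHep_Foxa2 against 48 h (-0.18) and del2 against iHep_Foxa3 (-0.0355), Timp3 in iHep_Foxa2 against iHep_Foxa3 (-0.11), and Col4a1 and Col4a2 in del2 against 48h_Foxa3 (-0.11 and -1.24). The set term rests on iHep_Foxa1 and iHep_Foxa3, the only groups that hold both library sets. With much Rn7sk alone, Col5a1 and Loxl1 turned in iHep_Foxa1 against iHep_Foxa3 (-0.16 and -0.10). With 1 library left out, Col6a6 ran from -5.56 to 1.497 for iHep_Foxa1 against Hep, from -5.55 to 1.64 for iHep_Foxa2 and from -6.58 to 0 for iHep_Foxa3, each upper value being the one without Hep replicate 2. For members with a few counts in a group, depth limits the size of any change that can be given.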
